A study of Mus musculus with 40 samples.

Results

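H3K9me2, dimethylation of lysine 9 of histone H3, was described in the gene deserts of mouse oocytes. A desert window was a 10 kb window of an autosome that lay at least 200 kb from every locus of the matching RNA table. It also lay outside the first 6 Mb and last 3 Mb of its chromosome and had a read in at least 1 of the 6 H3K9me2 libraries. Every locus of the RNA table counted, including the 22.4% of 38540 that had no read in any RNA library. This rule kept 11611 of the 272158 windows of the table, 4.27% of them, or 116.1 Mb. A further 141 windows met the distance rule but had no read in any library and were left out. The members formed 492 stretches, called domains here, of which 198 held at least 20 windows, 63 held at least 50 and the longest held 166. The comparison set, called other windows, was the 216006 autosomal windows with a read outside the same chromosome ends.

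The oocytes were at the germinal-vesicle stage, fully grown and not yet matured, and came from mice of 22 to 25 days, with 100 to 200 oocytes in each sample. The 3 genotypes were Control, a conditional knockout of G9a (G9a cKO) and a conditional knockout of both G9a and Glp (cDKO), with 2 H3K9me2 libraries each. The driver of the deletion is not given in the sources used here, and neither is the line from which the H3K9me2 controls came. Both mutants were compared with the same 2 Control libraries. The libraries were scaled to 7048784 and 19128881 reads in Control, 1857144 and 1109191 in G9a cKO, then 1723142 and 1881848 in cDKO. A desert window therefore held a median of 25 and 68 reads in the Control libraries and 6, 3, 6 and 6 in the mutants. RNA came from 11 other libraries: 3 G9a cKO with 3 controls of the GKAO title prefix, and 2 cDKO with 3 controls of the GKAQ prefix.

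G9A and GLP, the products of Ehmt2 and Ehmt1, work as a pair and place most of the H3K9me2 of euchromatin in mammalian cells. The mark is known for broad, shallow domains over silent chromatin, many of them at the nuclear lamina, and gene deserts are typical members of such domains. Long genes of the nervous system often lie in or beside deserts, because each spans a wide stretch with no neighbour and is silent outside its own tissue. Values are RPM, reads per 1000000 reads of the library, so a change in the total amount of H3K9me2 could not be seen.

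The label of a gene desert was checked against RefSeq. Of the members, 20.4% overlapped a RefSeq protein-coding gene, against 48.0% of the other windows. They were deserts of RNA loci rather than of genes: 314 protein-coding genes had at least 1 desert window, and 49 had 15 or more. Olfactory, vomeronasal and bitter taste receptor genes made up 126 of the 314 (84, 30 and 12). RefSeq gave 446 promoters of 379 genes with their start site in a desert window. These held a median of 1 CG dinucleotide, against 6 in the 28870 promoters of other autosomal windows, and 11% against 38.7% held at least 10. Promoters of 4 genes that recur below are shown, as the 250 bases before the start site on the gene's own strand, in RefSeq build GRCm38.p6, with each CG in capitals. They were picked after the values were seen, Dach1 and Pcdh7 from genes with less of the mark in G9a cKO and Kcnh8 and Slc22a22 from genes with more.
Dach1, chr14:98169766-98170015, minus strand: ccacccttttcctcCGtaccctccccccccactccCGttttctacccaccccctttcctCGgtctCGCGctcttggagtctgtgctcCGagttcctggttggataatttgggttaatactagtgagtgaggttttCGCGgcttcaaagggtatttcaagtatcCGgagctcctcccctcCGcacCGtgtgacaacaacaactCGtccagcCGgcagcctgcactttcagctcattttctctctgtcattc
Pcdh7, chr5:57717831-57718080, plus strand: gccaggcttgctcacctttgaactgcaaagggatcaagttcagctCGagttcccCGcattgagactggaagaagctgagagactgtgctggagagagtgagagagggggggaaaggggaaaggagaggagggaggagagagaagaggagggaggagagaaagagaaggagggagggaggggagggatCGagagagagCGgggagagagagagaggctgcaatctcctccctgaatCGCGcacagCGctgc
Kcnh8, chr17:52602459-52602708, plus strand: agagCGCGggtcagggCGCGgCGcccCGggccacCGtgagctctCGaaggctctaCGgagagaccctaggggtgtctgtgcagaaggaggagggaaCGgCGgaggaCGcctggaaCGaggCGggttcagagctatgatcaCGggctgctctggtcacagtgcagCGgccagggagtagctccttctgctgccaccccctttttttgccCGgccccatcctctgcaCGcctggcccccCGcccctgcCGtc
Slc22a22, chr15:57265162-57265411, minus strand: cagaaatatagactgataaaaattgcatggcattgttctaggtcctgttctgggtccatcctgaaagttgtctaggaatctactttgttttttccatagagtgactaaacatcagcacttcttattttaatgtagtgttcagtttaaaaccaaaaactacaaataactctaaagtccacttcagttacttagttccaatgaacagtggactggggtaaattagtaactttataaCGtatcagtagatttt
The Kcnh8 stretch held 20 CG dinucleotides, Dach1 13, Pcdh7 7 and Slc22a22 1, so the genes with less and with more of the mark were not separated by this count. The 10 kb window of the Dach1 start site held 4.68 and 3.35 RPM in Control, 2.15 and 0 in G9a cKO, then 2.32 and 1.06 in cDKO. These came from 33 and 64, 4 and 0, then 4 and 2 reads. The window of the Slc22a22 start site held 4.11 and 2.82 RPM, then 3.77 and 6.31, then 5.80 and 6.38. These came from 29 and 54, 7 and 7, then 10 and 12 reads. That of Pcdh7 held 3.40 and 3.29 RPM, then 1.62 and 4.51, then 2.32 and 3.19. That of Kcnh8 held 2.13 and 4.13, then 3.23 and 5.41, then 2.90 and 5.31. Only the Dach1 window separated Control from G9a cKO.

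Desert windows held less H3K9me2 signal than the rest of the autosomes in every library. The values were not set against input, and the part of base composition and mapping in this difference was not tested. A desert window held on average 3.53 and 3.52 RPM in the Control libraries, 3.42 and 3.34 in G9a cKO, then 3.43 and 3.48 in cDKO. Other windows held 4.02 to 4.05 RPM in all 6 libraries. The ratio of deserts to other windows was 0.878 and 0.869 in Control, 0.848 and 0.829 in G9a cKO, then 0.852 and 0.866 in cDKO. Both mutants lay below both Control libraries, by 0.035 for G9a cKO and 0.014 for cDKO. The exact two-sided permutation test gave p = 0.333 for each contrast, the smallest value that 2 libraries against 2 can reach, and p = 0.375 after Benjamini-Hochberg adjustment over 18 tests of ratios. The direction depended on the windows set against the deserts. Over windows at a locus the desert ratio was 0.914 and 0.912 in Control and 0.800 to 0.831 in the 4 mutant libraries, while over windows within 50 kb of a locus it was 0.826 and 0.813 in Control and 0.827 to 0.883 in the mutants. The differences turned to 0.037 and 0.062 higher in the mutants when only windows at least 500 kb from a locus were taken, and cDKO lay above Control by 0.046 when the median over windows replaced the mean. The turn at 500 kb was not recomputed without chromosome 15.

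The level depended on the distance to the nearest RNA locus, and the dependence differed between Control and mutant libraries. In Control, windows over a locus held 3.86 and 3.86 RPM, windows within 50 kb of one held 4.27 and 4.33, and the level then declined to 3.64 and 3.65 at 200 to 300 kb and 3.13 and 3.06 at 500 kb or more. In the 4 mutant libraries windows over a locus held the most, 4.13 to 4.24 RPM, and the decline was shallower. Within the deserts, G9a cKO held 3.49 and 3.37 RPM at 200 to 300 kb and 3.22 and 3.26 at 500 kb or more, and cDKO 3.44 and 3.54 and then 3.33 and 3.34. The most distant deserts, 1324 windows, were the only class of windows away from a locus in which all 4 mutant libraries lay above both Control libraries. Their ratio to the deserts at 200 to 500 kb was 0.874 and 0.857 in Control, 0.935 and 0.972 in G9a cKO, then 0.967 and 0.954 in cDKO (exact p = 0.333 for each mutant, the smallest possible). The middle of the domain at chr15:48680001-50070000, which spans 1390 kb, belongs to this most distant class. That domain lay above Control, with 4.49 and 6.49 RPM in G9a cKO, then 4.72 and 5.26 in cDKO. How far the order in this class rests on chromosome 15 was not tested. Around the threshold the change was gradual: windows at 190 to 200 kb held 3.77 RPM as the Control mean and windows at 200 to 210 kb held 3.70.

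**Figure D1:**
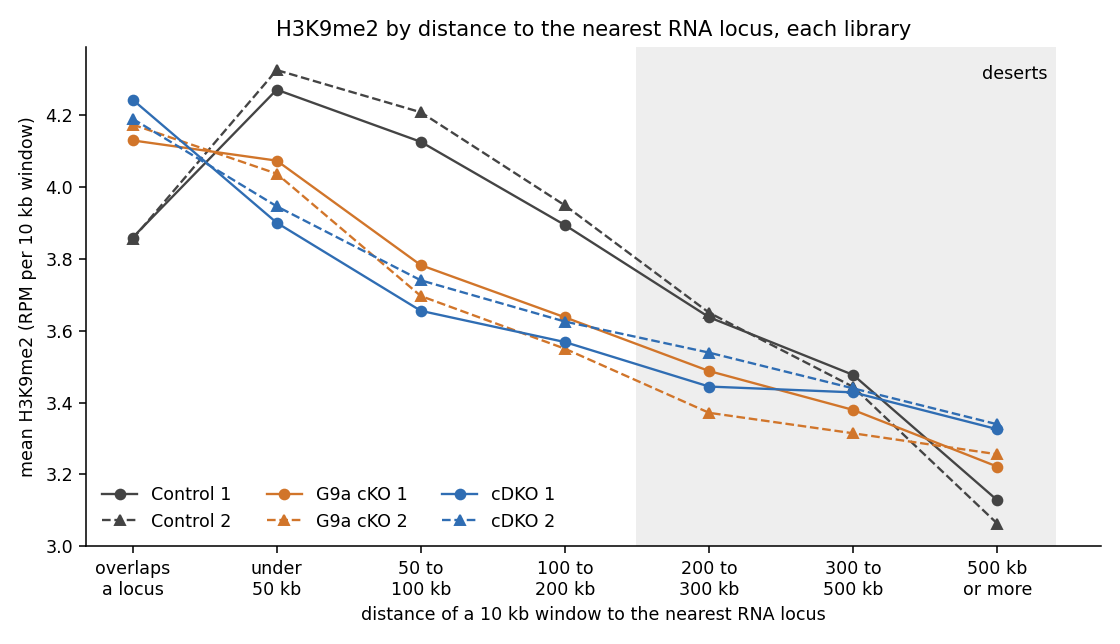
Mean H3K9me2 (RPM per 10 kb window, axis from 3.0) by distance to the nearest RNA locus, with 1 line per library and the desert classes shaded. Control libraries peak within 50 kb of a locus at 4.27 and 4.33 RPM, mutant libraries are highest over loci, and the order of Control and mutants is reversed at 500 kb or more. That last class was not recomputed without chromosome 15.

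Desert windows inside protein-coding genes held less of the mark in G9a cKO than gene-free desert windows did. In Control both kinds held nearly the same amount, 3.54 and 3.52 RPM in genes against 3.52 and 3.51 elsewhere. G9a cKO held 3.07 and 3.02 RPM in genes and 3.51 and 3.42 elsewhere, and cDKO held 3.35 and 3.43 in genes and 3.45 and 3.5 elsewhere. The ratio of genic to gene-free desert windows was 1.01 and 1.00 in Control, 0.874 and 0.884 in G9a cKO, then 0.972 and 0.980 in cDKO, with no overlap between any 2 genotypes (exact p = 0.333 for each pair, the smallest possible). The same order held 50 to 200 kb from a locus, where the ratio was 1.03 and 1.04, then 0.917 and 0.942, then 0.984 and 1.01, so it was not particular to the deserts. Genes of at least 500 kb, which took 1494 of the 2373 genic windows, held 3.63 and 3.61 RPM in Control, 2.99 and 2.90 in G9a cKO, then 3.37 and 3.45 in cDKO. Genes of 50 to 200 kb and of 200 to 500 kb also held less in G9a cKO than in Control. Shorter genes did not. With chemosensory receptor genes left out, the 159 windows in genes under 50 kb held 2.50 and 2.41 in Control, 2.89 and 2.50 in G9a cKO, then 2.74 and 2.58 in cDKO.

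**Figure D2:**
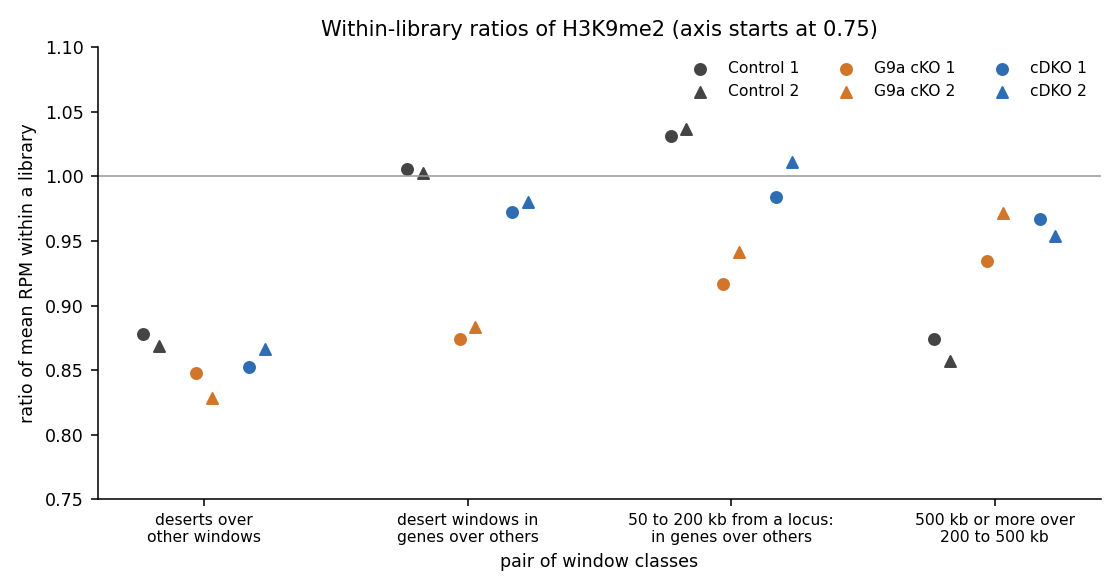
Ratios of mean RPM between pairs of window classes within each library (axis from 0.75, 1 point per library). The ratio of genic to gene-free desert windows separates the 3 genotypes, with G9a cKO at 0.874 and 0.884 and cDKO between it and Control.

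Among the 49 genes with at least 15 desert windows, both G9a cKO libraries lay below both Control libraries at 39, above them at 5 and overlapped them at 5. Of 1342 other RefSeq genes that covered at least 15 windows and had no desert window, 43.1% lay below in the same way and 32.6% above. Of the 27 such genes without any window over an RNA locus, 63.0% lay below in G9a cKO and 0.00% above, and 77.8% and 3.70% in cDKO. For cDKO, 25 of the 49 lay below Control and 8 above, against 33.4% and 43.6% of the 1342. Between the mutants, cDKO lay above G9a cKO at 29 and below it at none, with 20 overlapping. Of the 1342, 41.7% lay above and 147 genes below, and of the 27, 25.9% above and 3.70% below. The median log2 ratio over the 49 genes was -0.34 for G9a cKO over Control and -0.15 for cDKO over Control. It was -0.06 and 0.04 over the 1342, but -0.35 and -0.27 over the 27, so the lower level was not particular to desert genes. The 49 were chosen for their position alone, and the split by genes was made after the values had been seen.

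The lowest ratios of G9a cKO to Control were at Dach1, Cadm2, Robo2, Kcnt2, Nlgn1, Sgcz, Pcdh9, Fgf12, Nkain2 and B3galt1, in that order. Of these 10, 3 were on the list of 70 adhesion, axon guidance and synapse genes, as were 13 of all 49. Dach1, which encodes a transcriptional corepressor, held 3.08 and 2.97 RPM per window in Control, 1.77 and 1.29 in G9a cKO, then 2.63 and 2.56 in cDKO over 28 desert windows. Cadm2, a synaptic adhesion molecule, held 3.17 and 3.14, then 1.99 and 1.62, then 2.55 and 2.98 over 54 windows. Robo2, the receptor for the axon repellent Slit, held 3.63 and 3.70, then 2.18 and 2.05, then 2.82 and 2.89 over 47 windows. In these 3 genes the genotypes kept the order Control, cDKO, G9a cKO with no overlap. Nlgn1, a postsynaptic adhesion molecule, held 3.79 and 4.08, then 2.32 and 2.37, then 2.75 and 2.80. Pcdh9, a protocadherin, held 2.98 and 2.85, then 2.07 and 1.48, then 2.67 and 2.59, from 250 and 107 reads in G9a cKO. Ppargc1a, a coactivator of mitochondrial genes, had the highest Control level of the 49 together with Asic2, at 5.03 and 4.98 RPM, and held 3.59 and 3.56 in G9a cKO, then 4.16 and 4.43 in cDKO. Dcc, the netrin receptor, held 3.99 and 4.04, then 3.18 and 3.05, then 3.25 and 3.44. Of the 13 adhesion, axon and synapse genes of the listed 70 that reached 15 desert windows, 11 lay below Control in G9a cKO and 2 above, and 10 and 2 in cDKO. Of the 50 listed developmental transcription factors only Dach1 reached that size.

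The genes above Control in G9a cKO included Slc22a22, Csmd3, Kcnh8 and Alk, and these 4 also lay above it in cDKO. Slc22a22, an organic anion transporter, held 4.43 and 3.90 RPM in Control, 5.54 and 8.23 in G9a cKO, then 5.85 and 6.13 in cDKO. Csmd3, a very large membrane protein of neurons, held 3.71 and 3.88, then 4.35 and 6.04, then 4.90 and 6.42. Both genes lie in 1 stretch of chromosome 15, and their 2 G9a cKO libraries were far apart. Kcnh8, a potassium channel, held 3.48 and 3.64, then 4.00 and 4.91, then 4.17 and 4.28. Alk, a receptor tyrosine kinase, differed least, with 4.34 and 4.42, then 4.50 and 4.71, then 4.66 and 4.45.

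**Figure D3:**
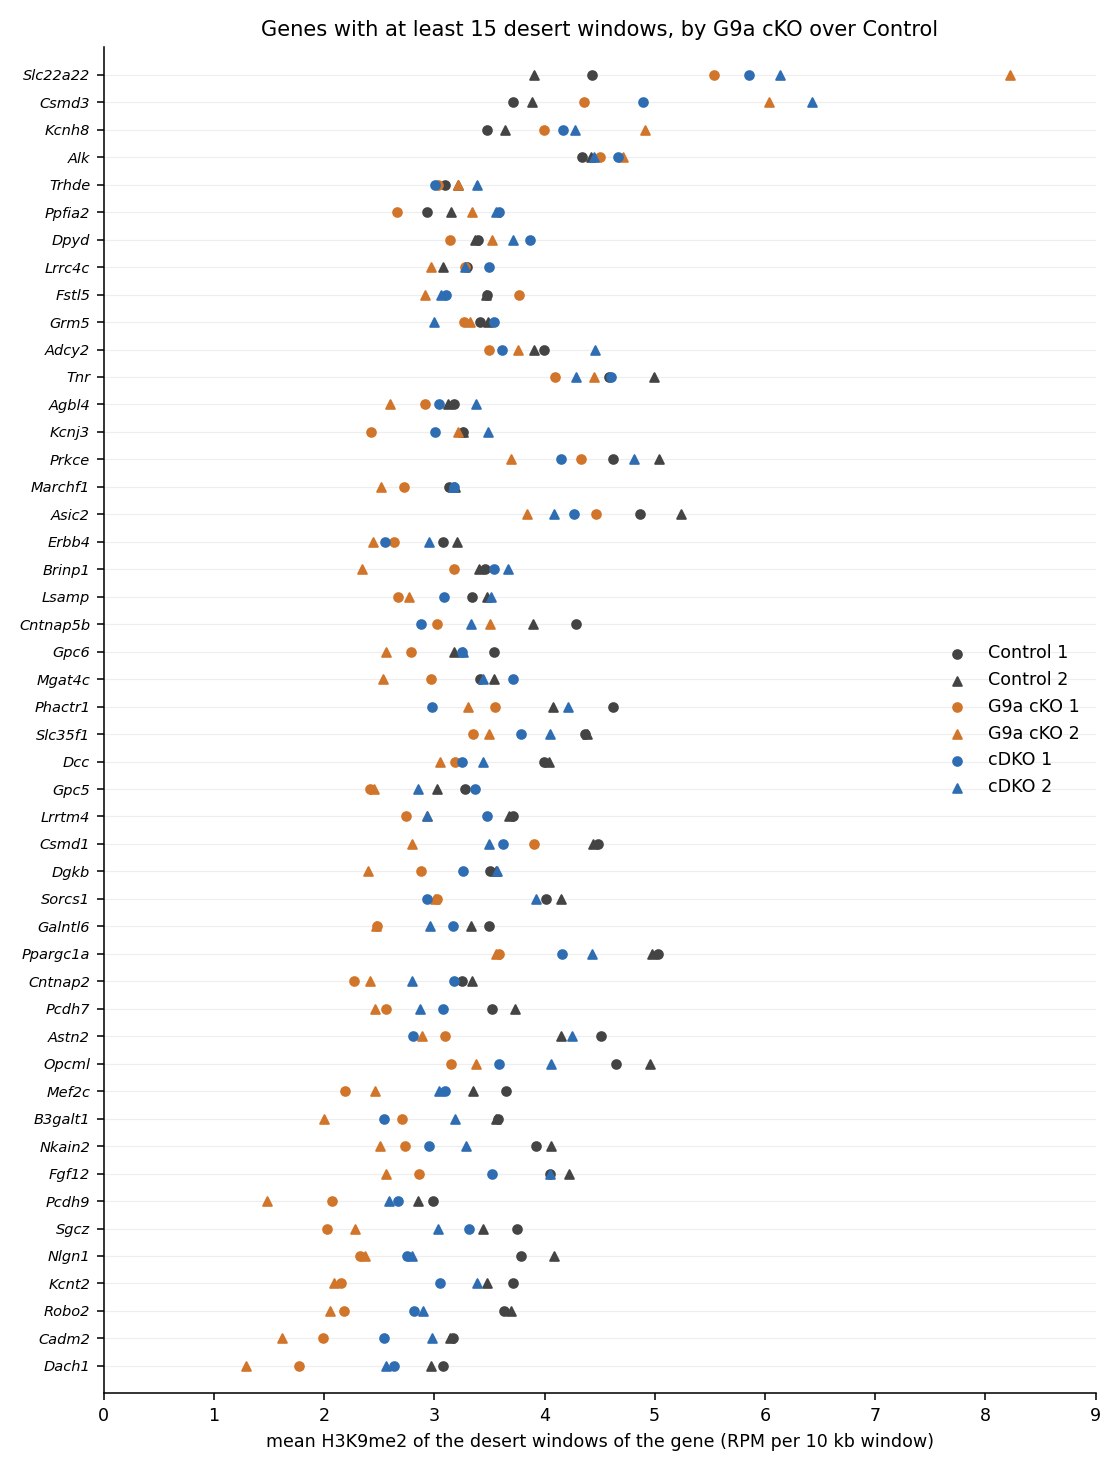
Mean H3K9me2 of the desert windows of 48 of the 49 genes with at least 15 of them (1 is not reported here; RPM per 10 kb window, 1 point per library), ordered by G9a cKO over Control. Dach1, Cadm2 and Robo2 at the bottom have both G9a cKO points near 2 or lower, and Slc22a22 at the top has its 2 G9a cKO points at 5.54 and 8.23.

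Averaged over their desert windows, the olfactory, vomeronasal and secretoglobin families lay above Control in G9a cKO, while at least 1 gene of each receptor family lay below it. The 177 desert windows with an olfactory, vomeronasal or bitter taste receptor gene held 3.00 and 2.87 RPM in Control, 3.72 and 3.61 in G9a cKO, then 3.30 and 3.17 in cDKO. Olfactory receptors, which detect odorants in the nose, took 101 of these windows, with 3.58 and 3.44 in Control, 4.2 and 4.42 in G9a cKO, then 3.82 and 3.66 in cDKO. Vomeronasal type 1 receptors, which detect pheromones, held only 1.58 and 1.51, then 2.98 and 2.28, then 2.60 and 2.1 over 19 windows. Vomeronasal type 2 receptors held 2.32 and 2.13, then 3.18 and 2.44, then 2.33 and 2.2 over 45 windows, so their cDKO libraries lay close to Control. The 12 windows of bitter taste receptors overlapped between Control and G9a cKO, with 2.94 and 3.00 against 2.87 and 3.31, and held 3.58 and 4.43 in cDKO. Outside the deserts, the vomeronasal type 1 family also lay higher in both mutants, with 3.13 and 3.24 in Control, 4.40 and 3.77 in G9a cKO, then 3.46 and 3.47 in cDKO. So did the type 2 family there, with 2.94 and 2.95, then 3.96 and 3.59, then 3.41 and 3.04. Windows of the secretoglobin family, small secreted proteins of glands and saliva, held 2.13 and 2.32, then 4.36 and 2.95, then 3.32 and 3.48 over 11 desert windows. Olfactory receptor windows outside the deserts overlapped between Control and G9a cKO, at 3.83 and 3.95 against 4.04 and 3.88. Multigene families share sequence, and how the authors treated reads that map to several copies is not given in the sources used here.

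Individual domains varied more than the mean of all deserts. Among the 63 domains of at least 50 windows the level in the first Control library ran from 0.282 to 4.40 RPM with a median of 3.41. G9a cKO lay below both Control libraries at 30 of them and above at 21, against 43.8% and 33.2% of the 4495 stretches of 500 kb across the inner autosomes. For cDKO the counts were 27 and 21, against 44.0% and 32.8%. These shares are near the background. Between the mutants, cDKO lay above G9a cKO at 23 and below at 11, against 27.4% and 22.4%.

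The domains with most windows showed the range. On chromosome 6 (chr6:74100001-75760000, with no RefSeq protein-coding gene) all 6 libraries held nearly the same, 3.68 and 3.62 RPM in Control, 3.66 and 3.68 in G9a cKO, then 3.55 and 3.69 in cDKO. The equally long domain on chromosome 12 (chr12:93680001-95340000), also without a gene, held 2.94 and 2.90, then 3.09 and 2.57, then 3.12 and 3.11. On chromosome 14 the domain of Gpc5 and Gpc6, glypicans of the cell surface, held 3.41 and 3.06, then 2.96 and 2.64, then 3.46 and 3.25 (chr14:116280001-117910000). A second gene-free domain of chromosome 6 (chr6:109070001-110360000) held 3.23 and 3.23, then 3.94 and 3.26, then 3.94 and 3.94, with 1 G9a cKO library at the Control level. The domain beside Csmd3 (chr15:48680001-50070000) held 3.43 and 3.5, then 4.49 and 6.49, then 4.72 and 5.26.

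Control levels were highest at chr9:61510001-61710000, with 5.49 and 5.70 RPM, and at parts of Asic2, Prkce and Opcml, with 4.62 to 5.24 RPM. For the chromosome 9 domain at 61510001, the nearest RNA locus at higher coordinates was the ribosomal protein gene Rplp1, at least 200 kb away. In the Opcml domain (chr9:28510001-28790000) the mutants held 3.15 and 3.38 in G9a cKO, then 3.59 and 4.06 in cDKO, against 4.65 and 4.96 in Control. Of the 4 lowest Control levels, 3 lay in vomeronasal receptor clusters of chromosome 7. The part of mapping in these low levels was not tested. At chr7:22360001-22610000 Control held 0.08 and 0.09 RPM per window, 13 and 38 reads in all, and G9a cKO 0.54 and 0.25. At chr7:8490001-9370000, which holds Vmn2r37 to Vmn2r40, the values were 0.28 and 0.27, then 0.85 and 0.71, then 0.63 and 0.49. That domain had the largest log2 ratio among those of 50 windows or more, 1.5 for G9a cKO and 1.03 for cDKO over Control. The vomeronasal domain of chromosome 17 (chr17:18850001-19760000, Vmn2r97 to Vmn2r102) held 3.24 and 3.00, then 4.99 and 4.47, then 4.02 and 3.40, a log2 ratio of cDKO to G9a cKO of -0.35.

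The lowest ratios of G9a cKO to Control were on chromosomes 14 and 16. They belonged to the Cadm2 domain (log2 ratio -0.80), the domain of Slitrk5, a regulator of neurite growth (chr14:111410001-111940000, -0.64), a gene-free domain (chr14:106630001-107170000, -0.52) and the Dach1 domain (chr14:97890001-98830000, -0.50). The Slitrk5 domain held 3.53 and 3.51 RPM in Control, 2.46 and 2.06 in G9a cKO, then 3.27 and 2.99 in cDKO. Cadm2, Slitrk5 and Dach1 were also 3 of the 4 domains with the highest ratio of cDKO to G9a cKO, 0.61, 0.47 and 0.37 on the log2 scale. Both rankings use the same G9a cKO libraries, so a low value there moves a domain in both, and they are not independent. In the gene-free domain of chromosome 14 the cDKO libraries held 2.38 and 2.94, against 2.37 and 2.25 in G9a cKO, so the first stayed at the G9a cKO level. The lowest cDKO to Control ratios, besides that domain, were at chr7:136110001-136690000 (-0.28), the Hs3st4 domain (-0.27) and the Dcc domain (-0.26).

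A domain in the imprinted Prader-Willi region of chromosome 7 was singled out after its values were seen. It overlaps no RefSeq protein-coding gene, other kinds of gene were not considered, and the small nucleolar RNA Snord64 flanks it at a distance of at least 200 kb. At chr7:59520001-59760000 it held 1.40 and 1.27 RPM per window in Control, 3.25 and 2.70 in G9a cKO, then 2.59 and 2.26 in cDKO. The next domain shown, which overlaps Snrpn, a paternally expressed splicing protein gene (chr7:60390001-61060000), held 2.92 and 2.92, then 3.82 and 3.31, then 3.51 and 3.28. Both domains lay above Control in all 4 mutant libraries, but the 7 desert windows of Snrpn itself, with 2.43 and 2.97, then 3.38 and 2.32, then 3.07 and 2.88, overlapped in every contrast.

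On some chromosomes deserts and other windows lay on the same side of Control, and on others they did not. In G9a cKO both kinds lay below both Control libraries on 5 of 19 chromosomes and above on 4, lay on opposite sides on 2 and overlapped Control in 1 or both kinds on 8. In cDKO these counts were 7, 2, 2 and 8. The opposite sides were on chromosomes 10 and 11 in both mutants: deserts of chromosome 10 held 3.69 and 3.79 RPM in Control, 3.36 and 3.36 in G9a cKO, then 3.33 and 3.66 in cDKO, while its other windows held 3.96 and 3.96, then 4.15 and 4.22, then 4.15 and 4.18. Deserts of chromosome 16 held 3.68 and 3.63 RPM in Control, 2.81 and 2.55 in G9a cKO, then 3.20 and 3.31 in cDKO, and the other windows of that chromosome 4.07 and 4.12, then 3.62 and 3.51, then 3.75 and 3.69. Deserts of chromosome 17 held 3.39 and 3.39, then 4.12 and 4.14, then 4.02 and 3.88, and its other windows 3.79 and 3.83, then 4.27 and 4.26, then 4.23 and 4.16. On chromosome 15 a stretch from 44 to 60 Mb stood out, and mainly in G9a cKO library 2. Its 293 desert windows held 3.77 and 3.74 RPM in Control, 4.63 and 6.49 in G9a cKO, then 4.97 and 5.33 in cDKO. The 1307 other windows of the same stretch held 4.11 and 4.12, then 4.77 and 6.38, then 5.02 and 5.46, so both kinds of window lay above Control in all 4 mutant libraries, the deserts by more. The remaining deserts of chromosome 15 held 3.92 and 4.18, then 3.71 and 3.82, then 3.39 and 3.52. Without chromosome 15, deserts held 3.52 and 3.5 RPM in Control, 3.39 and 3.25 in G9a cKO, then 3.39 and 3.44 in cDKO, and 251 of 898 desert bins of 100 kb passed in G9a cKO in the test described next.

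**Figure D4:**
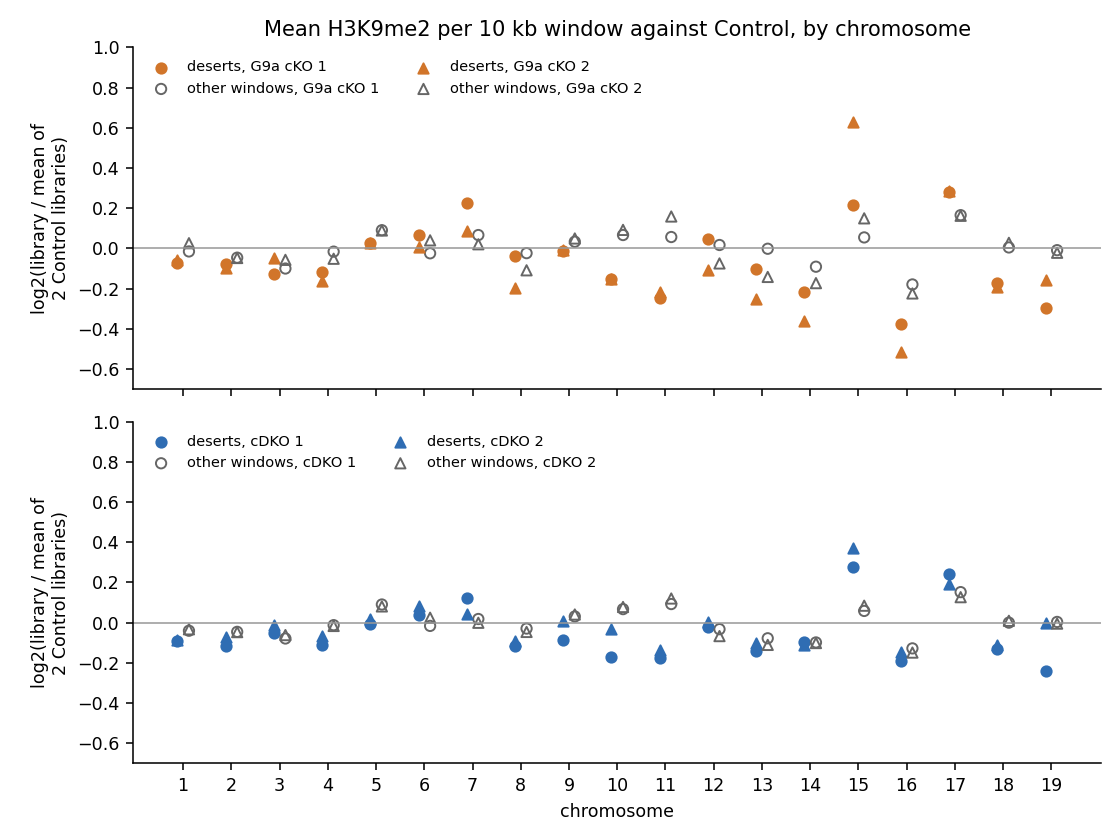
Log2 ratio of mean RPM per window of each mutant library to the mean of the 2 Control libraries, by chromosome, for deserts (filled) and other windows (open). Deserts of chromosomes 14 and 16 lie lowest in G9a cKO, those of chromosomes 15 and 17 highest, and the open points of these 4 lie on the same side, whereas on chromosomes 10 and 11 filled and open points lie on opposite sides.

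Sums over 100 kb bins were tested with limma across the 25533 bins of the genome, on log2(RPM + 1), with Benjamini-Hochberg adjustment. Of the 927 desert bins, those with at least 8 member windows, 262 passed an adjusted p of 0.05 in G9a cKO against Control, 163 lower and 99 higher. Over all bins 29.7% passed, 15.7% lower and 13.9% higher, so deserts were called about as often as the genome as a whole. In cDKO against Control 25 passed, 22 higher and 3 lower, against a background of 6.00% (4.40% higher and 1.60% lower). Between cDKO and G9a cKO 2 passed, both higher in cDKO, against 0.153% (0.0196% higher). The median log2 fold change of the desert bins was -0.13, -0.06 and 0.06 in these contrasts, beside -0.07, -0.04 and 0.04 over all bins. Centring each library on its median gave 132 higher and 103 lower in G9a cKO, and TMM scaling 124 of each. Over all 25533 bins these fits called 4393 higher and 2737 lower, then 4130 and 3106. Desert bins passed at 25.4% and 26.8%, against 27.9% and 28.3% of all bins. The balance of directions thus rested on the scaling, in deserts as over all bins. It also turned when either Control library was left out, among desert bins as among all bins. When either cDKO library was left out, the cDKO calls were lost, over all bins as well. Each of these fits left 1 library in a group. In bins of 1 Mb, 35 of the 62 desert bins passed in G9a cKO, 26 of them lower, against 54.7% of all (30.1% lower), and 18 in cDKO, 7 higher and 11 lower, against 41.4% (19.6% higher and 21.8% lower), so the cDKO balance differed from that at 100 kb. Between the mutants 8 of those passed, 5 higher and 3 lower in cDKO, against 8.70% (3.94% higher and 4.76% lower).

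**Figure D5:**
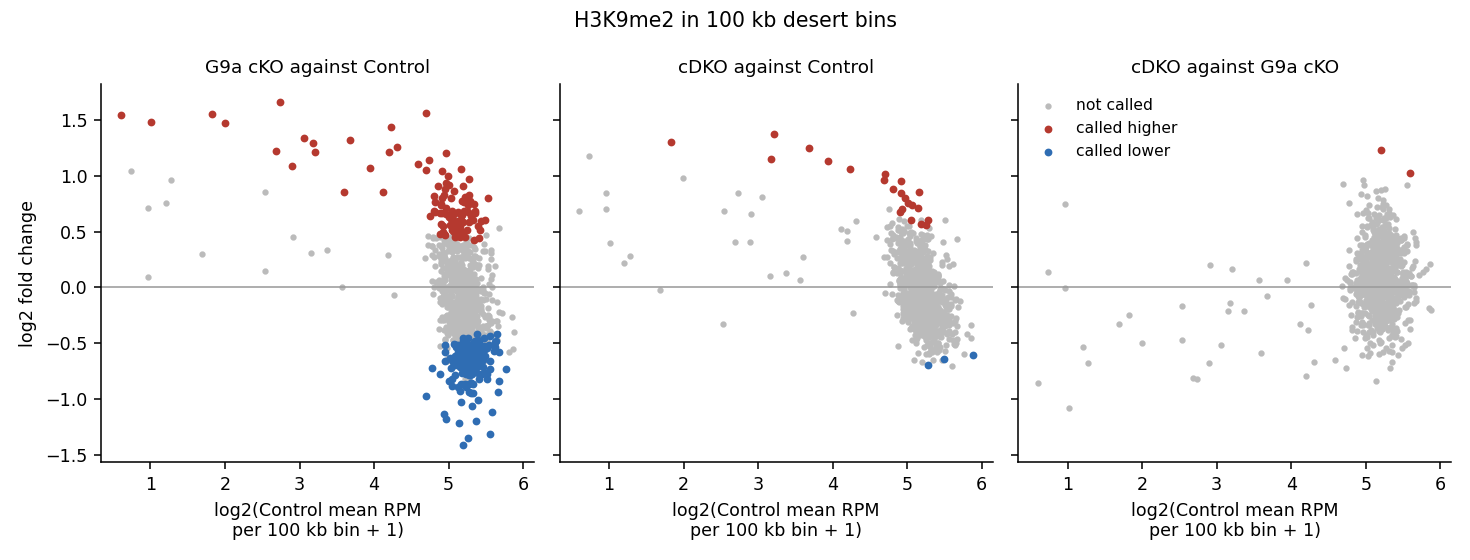
Log2 fold change of the 927 desert bins of 100 kb against their Control level (log2 of mean RPM + 1), for the 3 contrasts, with called bins coloured. In G9a cKO 163 bins are called lower and 99 higher, the bins with the lowest Control level that passed are all among the higher ones, and in cDKO 25 bins are called.

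Bins in genes and bins without genes both passed lower more often than higher in G9a cKO, and the difference between them was not tested. Of the 195 desert bins with at least 5 windows in RefSeq protein-coding genes, 28.2% passed lower in G9a cKO and 5.13% higher. Of the 680 without such a gene, 15.4% passed lower and 9.85% higher. Of the 52 in between, with 1 to 4 such windows, 42.3% passed higher and 5.77% lower. Outside the deserts, genic bins passed lower at 13.2%, but at 33.3% where no window lay over an RNA locus, a value above that of the desert bins. Gene-free bins outside the deserts and off RNA loci passed lower at 22.1% and higher at 7.74%. All 23 desert bins that passed in both mutants did so in the same direction, 21 of them higher, and both contrasts share their Control libraries. Chromosomes 14 and 16 gave 41 and 25 of the 163 bins called lower in G9a cKO, and chromosomes 17, 7 and 15 gave 20, 19 and 12 of the 99 called higher.

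Of the 5 largest decreases in G9a cKO, 4 were on chromosome 16, 3 of them in Robo2, Ncam2 and Cadm2, and 2 of the 5 had no gene. The Robo2 bin (chr16:74500001-74600000) held 36.5 and 35.0 RPM per 100 kb in Control, 15.1 and 10.8 in G9a cKO, then 31.3 and 31.4 in cDKO. It fell by 1.41 on the log2 scale (SE 0.20, limma adjusted p = 0.00146) in G9a cKO, and cDKO was higher than G9a cKO by 1.23 (adjusted p = 0.0473). The next bin of Robo2 (chr16:74600001-74700000) held 36.6 and 39.2, then 24.8 and 26.1, then 23.8 and 22.3, and was 1 of the 3 that fell in cDKO (log2 fold change -0.69, SE 0.17, adjusted p = 0.0382). The cDKO call of that bin was lost under 6 of 14 alternatives, and that of the first bin between the mutants under 5 of 14. The 2 bins were not tested against each other. Bins in Ncam2, a neural adhesion molecule (log2 fold change -1.35, adjusted p = 0.0018), and in Cadm2 (-1.21, adjusted p = 0.0107) also fell in G9a cKO. So did gene-free bins at chr16:52700001-52800000 (-1.31, adjusted p = 0.00146) and chr14:112800001-112900000 (-1.20, adjusted p = 0.0021). A gene-free bin at chr1:41800001-41900000 held 49.5 and 44.6 RPM in Control, 21.5 and 20.7 in G9a cKO, then 48.2 and 40.4 in cDKO, and was the other bin in which cDKO exceeded the single knockout, by 1.03 on the log2 scale (SE 0.16, adjusted p = 0.0406). The other 2 bins that fell in cDKO were gene-free, at chr12:46300001-46400000 (-0.64, adjusted p = 0.0483) and chr14:25000001-25100000 (-0.60, adjusted p = 0.0399).

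The largest increases were on chromosome 7, in secretoglobin and vomeronasal clusters. The bin of Scgb2b21 (chr7:33500001-33600000) held 23.4 and 26.7 RPM in Control, 78.1 and 73.0 in G9a cKO, then 51.6 and 51.5 in cDKO, from 81 to 510 reads per library. It rose by 1.56 on the log2 scale in G9a cKO (SE 0.13, limma adjusted p = 0.000739). A bin of Scgb1b29 (chr7:32400001-32500000) held 4.82 and 6.48, then 18.3 and 21.6, then 11.6 and 10.1, and rose by 1.66 (SE 0.25, adjusted p = 0.00172). In cDKO, the bin of Scgb2b11 (chr7:32200001-32300000) rose by 1.37 (SE 0.23, adjusted p = 0.0185), from 6.95 and 9.57 RPM in Control to 22.1 and 23.4. The bin of Scgb2b12 and Scgb1b12 rose by 1.13 in cDKO (adjusted p = 0.0193), and 2 bins of the Vmn1r157 to Vmn1r160 cluster rose by 1.15 and 1.25 (adjusted p = 0.0423 and 0.0185). The bin of Vmn2r38 and Vmn2r39 (chr7:9000001-9100000) rose in both, by 1.55 in G9a cKO and 1.30 in cDKO (adjusted p = 0.00481 and 0.0339), from 10 to 57 reads per library. Near the floor of detection stood 2 further bins of chromosome 7 that rose by 1.54 and 1.48 in G9a cKO (adjusted p = 0.0281 and 0.0123). The first held 4 and 9 reads in Control and 6 and 4 in G9a cKO, and the second, in the Vmn1r148 to Vmn1r151 cluster, 7 and 20 and then 11 and 4.

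Single 10 kb windows held too few reads for a test of ordinary changes. On the deposited values, 162 of the 11611 desert windows passed in G9a cKO against Control, 155 higher and 7 lower, with a background of 1.85% (1.75% higher and 0.102% lower). No desert window passed in cDKO against Control or between the mutants by limma (background 0.00% in both), with 877 and 1325 at an unadjusted p under 0.05, and limma-voom on the recovered reads passed 288 and 0, or 2.48% of desert windows in cDKO against 3.30% of all windows in the same fit. A window with no read is stored as 0.9 read, which is 0.128 and 0.047 RPM in Control but 0.485 and 0.811 in G9a cKO. Of the 155 windows called higher, 78 had no read in 1 or both G9a cKO libraries, and 65 had at least 5 reads in both. The count was 0 without G9a cKO library 2 and without either cDKO library.

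Along the deserts, the mutant libraries resembled each other more than they resembled Control, and the correlation between the cDKO libraries lay within the range of pairs across the mutants. Over the 927 desert bins, Pearson correlations of RPM were 0.92 between the Control libraries, 0.74 between the G9a cKO libraries and 0.67 between the cDKO libraries. Control correlated at 0.27 to 0.30 with G9a cKO and at 0.41 to 0.53 with cDKO, while G9a cKO and cDKO correlated at 0.60 to 0.69. After thinning to the depth of the shallowest library the values were 0.60, 0.69 and 0.57 within genotypes, 0.20 to 0.23 and 0.29 to 0.38 for Control with the mutants, and 0.51 to 0.63 between the mutants. These are descriptions across bins, which share base composition and mapping and are not independent replicates. Replicates of each genotype differed beyond sampling noise over desert windows, with a chi-square per degree of freedom of 1.05, 1.07 and 1.05.

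RNA was examined at the 387 loci nearest to the 198 domains of at least 20 windows, 100 of them with a gene name, in libraries separate from those of H3K9me2. In the RNA libraries Ehmt1, the gene of GLP, held 68.3 to 90.5 RPM in GKAQ controls and 17.7 to 21.3 in cDKO, and fell by 2.06 on the log2 scale (limma adjusted p = 1.09e-21). Ehmt2, the gene of G9A, held 9 to 13 reads in GKAO controls and 2 to 11 in G9a cKO, and did not pass (log2 fold change -1.55, adjusted p = 0.0971). In cDKO it held 5 reads in each library, against 8 to 30 in GKAQ controls. It did not pass there either (log2 fold change -1.45, limma adjusted p = 0.121). The 9 oocyte markers matched, among them Gdf9 and Zp2, summed to 12838 to 16647 RPM. The 10 granulosa markers summed to 379 to 429 RPM in GKAO controls, 315 to 352 in G9a cKO, 320 to 344 in GKAQ controls and 349 to 406 in cDKO. Their sum came largely from Serpine2 and Nr5a2, and Cyp19a1 held 23.5 to 49.0 RPM. Amh and Foxl2 had medians of 0.593 and 0.417 RPM and no read in 3 and 5 libraries, Fst, Fshr and Inhba had none in 2, 1 and 1, and Kitl and Inha were read in all, with medians of 7.51 and 4.17 RPM. Of the 10, 3 passed higher in cDKO and 0 in G9a cKO, and their part in the RNA results below was not tested.

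Flanking loci were seldom transcribed, and those that passed were all higher in the mutants. Of the 387, 32.3% had no read in any RNA library, against 22.4% of all 38540 loci, and 9.82% reached a mean of 10 RPM, against 23.6%. In G9a cKO 7 passed, all higher, against a background of 1.79% of all loci (1.05% higher). In cDKO 27 passed, all higher, against 6.34% (4.32% higher and 2.02% lower). The effects of the 2 mutants differed at 3, all higher in cDKO, against 1.08% (0.685% higher and 0.397% lower). Both shares, 1.81% and 6.98%, are near the background for either direction but above the shares of all loci called higher. The median log2 fold change of the flanking loci was -0.32 and 0.20, beside -0.31 and 0.20 over all loci, values close to those of a locus without reads. Among loci with a mean of at least 1 RPM, 9 of 114 flanking loci passed in G9a cKO and 23 in cDKO, all higher. These were 7.89% and 20.2%, against 4.49% and 14.9% of all such loci in either direction. For the difference between the effects the shares were 0.877% and 2.01%. Whether flanking loci depart from the background was not tested.

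Dcc was the 1 named flanking locus that passed in both mutants. Its RNA locus at chr18:71256940-71299431 held 1, 0 and 3 reads in GKAO controls and 14, 13 and 8 in G9a cKO, at least 2.71-fold higher when set against 3 reads per control library (limma adjusted p = 0.00183). In cDKO it held 11.96 and 19.6 RPM against 0, 2.08 and 1.97 in GKAQ controls (log2 fold change 3.53, SE 0.69, adjusted p = 2.71e-05). The desert windows of Dcc (chr18:71500001-72070000), at least 200 kb from that RNA locus, lay below Control in H3K9me2 in both mutants, as given above. The mark at the RNA locus itself is not given here. Zfp560, a zinc finger gene, held 47.3 and 38.5 RPM in cDKO against 15.7, 10.0 and 11.3 in its controls (log2 fold change 1.82, adjusted p = 1.04e-06). Tmeff2, a transmembrane protein of brain and prostate, held 12.5 and 8.30 against 3.77, 2.92 and 0.49 (log2 fold change 2.54, adjusted p = 0.000723). The cDKO libraries lay above all 3 controls in each of these 3 loci, and the cDKO call was lost under 1 of 15 alternatives for Dcc, 3 of 15 for Tmeff2 and 0 of 15 for Zfp560.

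Ugt8a, which makes the galactolipids of myelin, rose by 1.74 on the log2 scale in cDKO (limma adjusted p = 0.00503), Tmem161b, a membrane protein, by 1.14 (adjusted p = 0.0027) and Pkhd1, the gene of fibrocystin, by 1.11 (adjusted p = 0.023). Both cDKO libraries of Ugt8a held 35 reads, against 8, 20 and 11 in the controls. Gm12724 held 5 and 7 reads in cDKO against 0, 2 and 1, at least 1.86-fold higher. Gm5152 held 4 and 2 reads against none in the 9 libraries of other groups, too few for a fold. The cDKO call was lost under 1 of 15 alternatives for Tmem161b, 3 of 15 for Ugt8a, 4 of 15 for Pkhd1, 6 of 15 for Gm12724 and 3 of 14 for Gm5152. A transcript on the other strand overlaps Pkhd1 and Tmeff2, and whether counting used the strand is not given in the sources used here. Of the listed genes beside the deserts, Cntnap5b, Opcml and Pcdh17 had no read in any library, and Pcdh9, at a mean of 147 RPM in GKAO controls, 157 in G9a cKO, 228 in GKAQ controls and 284 in cDKO, did not pass (adjusted p = 0.585 and 0.126 in the 2 mutants). Pcdh9 RNA was thus plentiful in controls and mutants alike. The H3K9me2 of its desert windows, at least 200 kb from every RNA locus, lay below Control in both mutants. The mark at the Pcdh9 RNA locus is not given here.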

How the data were processed

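Both deposited tables hold log2 values per library, from 10 kb windows (H3K9me2) and transcript loci (RNA), so the authors did not pool replicates. The unit was read from the values: values are reads per 1000000, and no read is stored as 0.9 read. Whole reads were recovered within 0.01 read for 100% of the H3K9me2 values and for at least 99.9974% of those of each RNA library. Per the submitters' processing notes, Trim Galore, Bowtie2, HISAT2 2.1.0, Bismark 0.19.0 and the build GRCm38 were used, with no role stated. Antibody was 250 ng per immunoprecipitation, per the labels' protocols. A further 4 value columns of the window table match no sample here and were not used.

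Deserts were found by the rule above and joined across at most 1 missing window. Means use recovered reads, with no read as 0. limma 3.58.1 (R 4.3.3, trend and robust) was fitted with a mean per group to bins of 100 kb with at least 5 windows with a read, as log2(RPM + 1), and on deposited log2 values to windows with a read and to all RNA loci. Each RNA mutant was compared with the controls of its title prefix. Count tests had been planned in case of raw counts, and the unit led to limma instead. Fits were tested on simulated data at the real depths, with 66 or 67 desert bins or windows changed at each size. Of desert bins changed 2-fold in G9a cKO, 78.8% were called and of those at 0.5-fold only 49.3%, so decreases were called less often than increases there. Of those changed 1.5-fold, 11.9% were called, and of windows changed 4-fold, 10.4%. The adjusted threshold depends on the share that changes, and 29.7% of real bins passed, so these rates do not describe the real test of bins. Nothing says that libraries of a group came from separate animals, so p-values measure only the spread between these samples.

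Genes came from RefSeq GRCm38.p6 by coordinate. Input, IgG and bisulphite samples were not used here. The members, lists and named items were chosen with earlier results of these data known. Named by rule were the 6 domains with most windows, the 4 highest and 4 lowest in Control among those of at least 20 windows, the 4 highest and 4 lowest changes per contrast among those of at least 50, the 5 called bins with the largest change per direction and contrast, the 8 called named loci with the largest change, and listed genes beside a domain. Some items that this rule names are not reported here. Alternatives varied distance, scaling, pseudocount, filters, bin size, depth and each library. The split by genes, chromosome 15 and limma-voom were added after seeing the data.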

Additional observations from a re-analysis of the deposited data

Results flagged for a closer look

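The difference between the mutants' effects passed a test at 2 desert bins and 3 flanking loci. In the Robo2 bin of chromosome 16 (start 74500001) cDKO was higher than G9a cKO by 1.23 on the log2 scale, and in the gene-free bin of chromosome 1 (start 41800001) by 1.03. Neither was called without G9a cKO library 2 or without either cDKO library. Limma adjusted p-values ranged from 0.00685 to 0.213 over the alternatives for the first and from 0.00731 to 0.213 for the second. For RNA, the effect in cDKO exceeded that in G9a cKO by 2.91 on the log2 scale at Edn1, the gene of the vasoconstrictor endothelin 1 (limma adjusted p = 0.00709). Edn1 held 9.60, 12.6 and 3.52 RPM in GKAO controls, 6.26, 0.55 and 6.59 in G9a cKO, 3.77, 5.83 and 4.93 in GKAQ controls and 15.4 and 11.9 in cDKO, and neither effect passed alone. The unnamed loci TCONS_00006070 and TCONS_00031171 differed by 2.83 and 3.01 (adjusted p = 0.046 and 0.00277).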

How the results depend on the processing

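The ratio of deserts to other windows turned to 0.0373 above Control in G9a cKO and 0.0625 in cDKO at 500 kb or more, and to 0.0462 in cDKO with the median over windows. Without 1 library at a time it ranged from -0.0445 to -0.0252, from -0.0209 to -0.00677 and, for cDKO against G9a cKO, from 0.0114 to 0.0306. The values at 500 kb or more were not recomputed without chromosome 15.

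Desert bins called (262, 25 and 2, in the order G9a cKO, cDKO, cDKO against G9a cKO) became 162, 0 and 0 without a filter on low bins. The 162 were 17.5% of desert bins, against 18.5% of all bins, and no bin of the genome passed in the other comparisons. In cDKO against G9a cKO the desert bins called became 7 after centring (0.755% against 1.08% of all bins). With TMM scaling they became 5 (0.539% against 0.619%). Thinning gave 152 in G9a cKO and 1 between the mutants, limma-voom 139 in cDKO and 23 between the mutants, and bins of 1 Mb 35 of 62 and 8. Leaving out 1 library gave ranges of 52 to 304, 0 to 97 and 0 to 44. G9a cKO fell to 52 and 53 without Control replicate 1 or 2. In cDKO the count was 0 and 1 without these, 0 without either cDKO library and 97 and 95 without G9a cKO replicate 1 or 2. Between the mutants it was 44 without G9a cKO replicate 1 and 0 without replicate 2 or either cDKO library.

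Desert windows called (162, 0 and 0) became 570 and 161 over all windows of the table in the comparisons with Control. These were 4.91% and 1.39% of desert windows, against 11.8% and 7.54% of all windows. In G9a cKO they became 28 at a mean of at least 2 RPM (0.259% against 0.701%). Centring gave 324 (2.79% against 3.59%) and thinning 15 (0.130% against 0.369%). limma-voom gave 1296 and 288 desert windows, 11.2% and 2.48%, against 11.6% and 3.30% of all windows. Without 1 library they ranged from 0 to 471, from 0 to 118 and from 0 to 0. G9a cKO reached 471 without its replicate 1 and 0 without its replicate 2 or either cDKO library, and cDKO 118 without Control replicate 1.

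Flanking loci called (7, 27 and 3 for the difference) became 1 for the difference at a mean of at least 1 RPM (0.877% against 2.01% of all such loci). With limma-voom they became 4 in G9a cKO (1.03% against 1.12% of all loci). Without 1 library they ranged from 5 to 8, from 19 to 29 and from 2 to 182, with 182 without GKAQ control replicate 1 (47.0% of the flanking loci, and 38.2% of all loci in the same fit), 7 without cDKO replicate 2 and 5 without GKAQ control replicate 2. No paired analysis was possible for H3K9me2 because its library numbers are all different. For RNA a replicate block on the number in the title gave 8, 15 and 5. These were 2.07%, 3.88% and 1.29% of the flanking loci, against 2.09%, 2.52% and 1.41% of all loci. Samples with the same number were not paired: their deviations correlated at 0.000353 to 0.113 over 9091 loci, against -0.122 to 0.0504 for other pairs.

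The planned edgeR and DESeq2 alternatives were not run because the deposited unit is log2. limma-voom and the fit without chromosome 15 were chosen after seeing the data. Of the values for single named bins and loci under the alternatives, 325 kept their side of the threshold, 89 lost the call and 0 reversed. The causes of these changes were not tested. Depth limits mostly the mutant libraries, with a median of 3 to 6 reads per desert window.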
